A study of Mus musculus with 12 samples.

Results

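Polysomal RNA was compared with total RNA in adipose stromal cells differentiated under rosiglitazone (Rosi), which activates PPARγ, the master transcription factor of fat cells. The comparison used all 6 Rosi libraries of the 12 in the series, 3 of the polysome pool (polysome) and 3 of total RNA (input), chosen by the treatment and fraction in their labels. The cells were the stromal vascular fraction (SVF), the mixed nonadipocyte cells of fat, from the epididymal fat of 12-week-old male mice of the strain Lepob/Lepob, which make no functional leptin and become obese. All 6 libraries shared the adipogenic cocktail of 0.5 mM isobutylmethylxanthine, 1 µM dexamethasone and 5 µg/mL insulin with 1 µM Rosi for 2 days, then insulin and Rosi for 2 days, fresh medium for 1 hour at day 4, and 100 µg/mL cycloheximide for the last 5 minutes. Extracts were layered on sucrose gradients of 5 to 50%, and polysome fractions with at least 3 ribosomes per mRNA, as the series text puts it, were pooled. The labels name the pooled libraries by the tissue alone, and they were read as polysome because the remaining libraries are named input. No Rosi library came from lean mice, and the cultures held several cell types, so that in these bulk samples a cell type with less RNA on polysomes and a gene with fewer ribosomes cannot be told apart.

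An mRNA that is being translated carries several ribosomes at a time, and the more it carries the faster it sediments through sucrose. Cycloheximide freezes ribosomes in place on the mRNA before lysis. The ratio of polysome to input for a gene therefore reads the share of its mRNA in the heavy fractions relative to the average mRNA, and an mRNA with a short coding sequence has room for fewer ribosomes than a long one. A regulator can hold an mRNA out of polysomes by blocking the start of translation, as the iron regulatory proteins do for ferritin and as a lack of growth signals does for the terminal oligopyrimidine (TOP) mRNAs that encode the translation machinery.

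The 6 libraries held 19.8 to 24 M estimated reads. In a principal component analysis the leading axis held 67.8% of the variance and parted polysome (−47.6 to −31.2) from input (35.1 to 40.7). Levels are given as CPM, the reads of a gene scaled to the effective size of its library, and all log2 values are polysome over input within Rosi, so that a negative value is a lower share in polysome. Of 13573 genes tested with the quasi-likelihood test of edgeR, 8371 (61.7%) had an adjusted p under 0.05, and 1600 (11.8%) also differed by more than 2-fold, the threshold for a called gene. Of the called genes, 901 (6.64% of those tested) were higher and 699 (5.15%) were lower in polysome. The counts of called members in each gene list below are to be read beside these shares. Of the called genes 1571 did not overlap between the 3 polysome and the 3 input libraries, and the same held for 9128 (67.3%) of all tested genes. The median log2 value over all tested genes was −0.00, with 5% of genes below −1.01 and 5% above 1.09. With GC content taken out of each library as a smooth curve, called the GC offset below, an alternative added after seeing the data, 207 genes were called higher and 269 lower, together 3.63% of those tested.

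**Figure D1:**
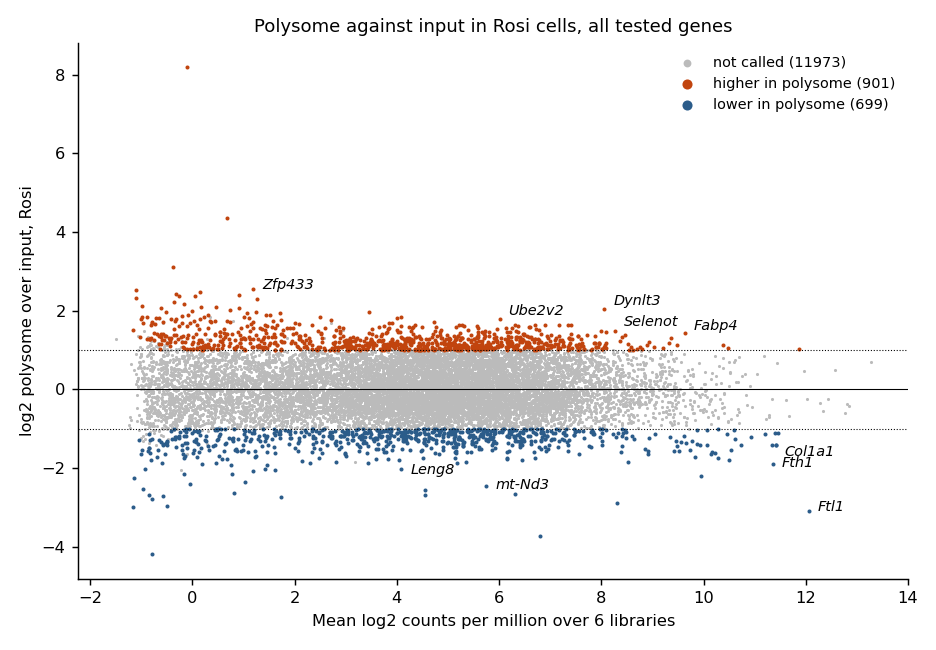
Each point is one of the 13573 tested genes, with the mean log2 CPM over the 6 Rosi libraries on the x axis and log2 polysome over input on the y axis, and dotted lines mark 2-fold. The 901 genes called higher (orange) and 699 called lower (blue) lie at all levels, and Ftl1 stands far below the other abundant genes.

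Ferritin stores iron in the cell, and its light chain Ftl1 and heavy chain Fth1 had among the lowest values of all abundant mRNAs. Ftl1 (ENSMUSG00000050708, chromosome 7, 45457944 to 45459884, minus strand, GRCm38) had 8510, 7670 and 6750 CPM in the input libraries and 919, 902 and 887 CPM in the polysome libraries. The groups lay far apart, and the lowest input library exceeded the highest polysome library several times over. Its log2 value was −3.08 ± 0.11 (SE; edgeR adjusted p = 1.58e-10), an 8.47-fold lower level in polysome. By TPM, which accounts for transcript length, Ftl1 was the protein-coding gene of rank 1 in input and of rank 80 in polysome. Fth1 (ENSMUSG00000024661, chromosome 19, 9980598 to 9985098, plus strand) had 4270, 4240 and 3810 CPM in input and 1030, 1140 and 1140 CPM in polysome, again without overlap (log2 −1.89 ± 0.09, SE; edgeR adjusted p = 9.32e-09). Together the ferritin genes took 1.22, 1.17 and 1.05% of input reads and 0.204, 0.208 and 0.205% of polysome reads (exact permutation p = 0.1, two-sided, the smallest that 3 against 3 allows). Ftl1-ps1 (log2 −2.73), a pseudogene by its name but annotated as protein coding, shares sequence with Ftl1, so that its reads are uncertain.

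The ferritin mRNAs carry in the 5′ UTR an iron-responsive element, the hairpin to which iron regulatory proteins bind when iron is scarce. The elements of 3 tested genes of the list of iron-responsive mRNAs, read from the 5′ UTR of the main transcript (GENCODE M21, GRCm38), are shown, 5′ to 3′ as DNA, because they span the range of values from ferritin to no change. Capitals mark the match, a C, 5 bases, the loop CAGTGN and 5 bases that can pair with the first 5, G with T included, searched on the transcript strand alone.
Ftl1: cttgCTTCAACAGTGTTTGAAcgga
Fth1: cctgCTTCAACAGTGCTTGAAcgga
Slc40a1: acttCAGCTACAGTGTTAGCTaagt
The element of Ftl1 spanned bases 80 to 104 of its transcript and that of Fth1 bases 89 to 113, and 23 of their 25 bases were equal. The element of Slc40a1 (chromosome 1, 45908068 to 45926523, minus strand) spanned bases 92 to 116. A match was found in 22 of 19107 genes with a 5′ UTR of at least 20 bases (0.115%). Among the 18 of these that were tested, 5 were called lower and 1 higher, where 5.15% and 6.64% of all tested genes were called, and the median log2 value was 0.02. The ferritin genes and Ftl1-ps1 are among the 5.

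The other iron genes described varied. The iron exporter Slc40a1 was at 0.09 (adjusted p = 0.602), although its 5′ UTR carries an element. Tfrc, the transferrin receptor, whose elements lie in the 3′ UTR and protect the mRNA from decay, was at 0.48 (adjusted p = 0.000168), and the iron importer Slc11a2 at −0.43 (0.000366). Epas1, a hypoxia-inducible factor known to carry a 5′ element, was at −0.61 (4.47e-05), and Cdc14a was called higher at 1.18. Of 8 tested members, 3 were called lower and 1 higher, with a median of −0.52 (2 lower, none higher and −0.43 with the GC curve taken out).

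Cytosolic ribosomal protein mRNAs are classic TOP mRNAs, and most had values near the average mRNA. Of 79 tested, 4 were called lower and none higher, where 5.15% and 6.64% of all tested genes were called. The median log2 value was −0.01 (0.09 with the GC curve taken out). With coding length taken out as well the median was −0.26 and 5 were called lower. The median coding length of the list was 438 bases. At any fold 24 had an adjusted p under 0.05 on the lower side and 13 on the higher side, where 30.2% and 31.5% of all tested genes did. The 4 called lower were Rplp0 and Rplp1 of the ribosomal stalk and Rpsa and Rps2 of the small subunit. Rplp0 had 2400, 2220 and 2070 CPM in input and 696, 649 and 612 CPM in polysome (log2 −1.78 ± 0.09, SE; edgeR adjusted p = 9.32e-09). Rpsa had 2040, 1940 and 1780 CPM in input and 588, 578 and 550 CPM in polysome (−1.75 ± 0.09, 9.32e-09). Rps2 (−1.55) and Rplp1 (−1.40) followed, and in each of the 4 genes the lowest input library lay above the highest polysome library. The other members stayed within 2-fold or missed the test, up to 0.60 for Rpl5 and Rpl38, and the median was 0.00 over 47 large subunit genes and −0.08 over 32 small subunit genes. Rpl41, the shortest of them, had 799, 749 and 649 CPM in input and 579, 699 and 863 CPM in polysome, which overlapped (log2 −0.04, adjusted p = 0.81), and was at 0.39 with the GC curve taken out. Many ribosomal protein genes have processed pseudogenes with which reads can be shared.

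Other TOP mRNAs split more widely, with 5 of 22 called lower, none higher and a median of −0.45 (1 called lower and −0.35 with the GC curve taken out). Pabpc1, the cytoplasmic poly(A)-binding protein, had 1050, 1020 and 1030 CPM in input and 344, 367 and 333 CPM in polysome (log2 −1.57 ± 0.08, SE; edgeR adjusted p = 9.32e-09), and its relative Pabpc4 was at −1.31. Eef2, which moves the ribosome along the mRNA, had 4210, 3510 and 3620 CPM in input and 1520, 1420 and 1320 CPM in polysome (−1.41 ± 0.10, 3.87e-08). Vim, the intermediate filament of mesenchymal cells, was at −1.11 and Eef1g, a subunit of elongation factor 1, at −1.03. None of these 5 overlapped between fractions. On the other side Naca (0.85) and Btf3 (0.58), the subunits of the nascent chain-associated complex, and the histone chaperones Npm1 (0.80) and Nap1l1 (0.72) passed the test without reaching 2-fold. Eef1a1, the elongation factor that delivers tRNA and one of the most abundant mRNAs, was at −0.59 (5540 against 8340 CPM on average).

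**Figure D2:**
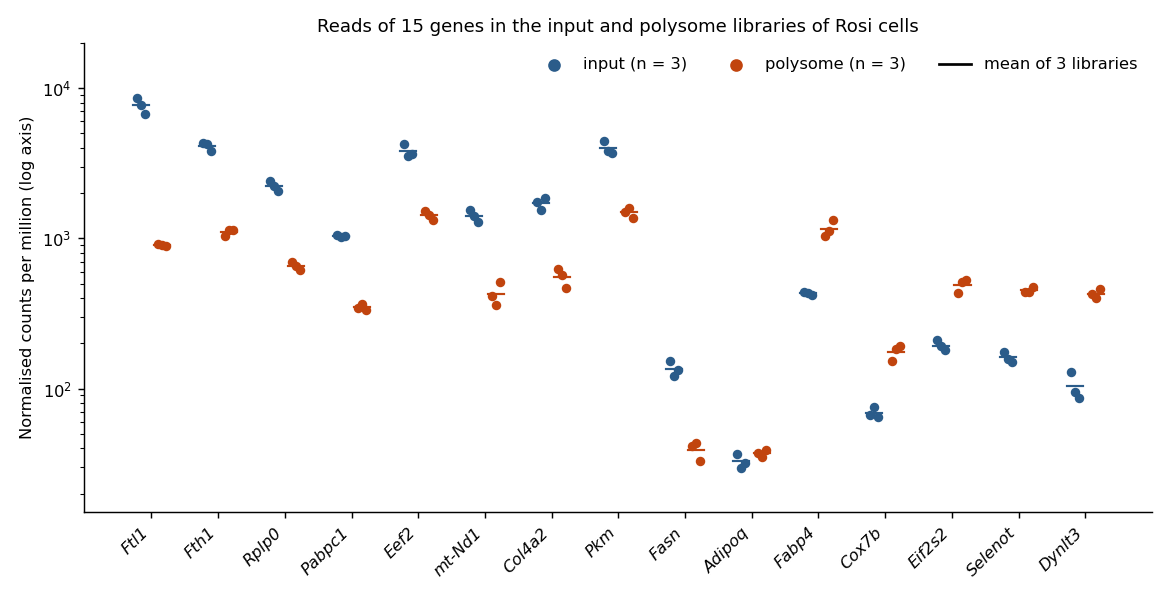
Normalised CPM (log axis) of 15 genes in the 3 input (blue) and 3 polysome (orange) libraries of Rosi cells, each point a library and each bar the mean of 3. The libraries of the fractions did not overlap for any gene shown but Adipoq, and Ftl1 showed the widest gap.

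Initiation factors bring the small subunit to the start codon, and their mRNAs had a median of 0.05, with 4 of 33 called higher and none lower. Under the GC offset none was called, with Eif2s2 at 0.64 and Eif4g2 at 0.44. Eif2s2, the beta subunit of eIF2, had 209, 191 and 180 CPM in input and 430, 508 and 527 CPM in polysome (log2 1.34 ± 0.10, SE; edgeR adjusted p = 4.03e-08). Eif3j1 was at 1.09, and Eif4g2, an eIF4G relative, had 884, 956 and 923 CPM in input and 1870, 1860 and 2000 CPM in polysome (1.05 ± 0.08, 9.57e-08). Eif1ax was called at 1.00 and was within 2-fold without polysome replicate 2 (0.97), input replicate 1 (0.96) or input replicate 3 (0.98). Subunits of 1 complex did not move together. The cap-binding protein Eif4e was at 0.97 and its scaffold Eif4g1 at −0.81, and among eIF3 subunits Eif3d, Eif3c and Eif3b were at −0.97, −0.81 and −0.71 and Eif3m was at 0.45, all with an adjusted p under 0.05.

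Some genes with upstream reading frames are translated more when eIF2 is phosphorylated. The list of such genes and of targets in the integrated stress response had a median of −0.05 (0.16 with the GC curve taken out). Of 24 members 2 were called higher and 1 lower (2 without polysome replicate 2 or input replicate 3), where 6.64% and 5.15% of all tested genes were called. Atf4, the central factor, had 332, 370 and 357 CPM in input and 419, 422 and 447 CPM in polysome, which did not overlap (log2 0.28 ± 0.08, SE; edgeR adjusted p = 0.00669). It was at 0.63 with the GC curve taken out and at 0.58 with coding length taken out as well. The stress protein Nupr1 (1.18) and Ifrd1 (1.09), whose mRNA carries an upstream frame, were called higher. Phgdh, the first enzyme of serine synthesis, was called lower (−1.11, with 202 against 436 CPM). Ddit3 was at 0.65 and Atf5 at −0.46, and both passed the test within 2-fold.

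Selenoproteins read a UGA codon as selenocysteine. Of 20 tested, 2 were called higher and 1 lower, with a median of 0.15 (1 each and 0.26 with the GC curve taken out). Selenot, a thioredoxin-like protein of the endoplasmic reticulum (ER), had 175, 158 and 151 CPM in input and 440, 436 and 477 CPM in polysome (log2 1.48 ± 0.09, SE; edgeR adjusted p = 1.68e-08). Selenow had 127, 102 and 100 CPM in input and 31.7, 30.7 and 35.4 CPM in polysome (−1.75 ± 0.11, 2.01e-08), so that small selenoproteins stood at opposite ends. The ER members Selenof (0.90), Selenos (0.92) and Selenok (0.63) also passed the test, and Gpx4 and Gpx1 were at −0.37 and −0.28. Dio2, the deiodinase that activates thyroid hormone, was called higher at 1.85 from low levels of 1.69 and 0.466 CPM.

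The nuclear genes of oxidative phosphorylation were among the groups highest in polysome. Of 77 tested, 12 were called higher and none lower, with a median of 0.57, and 54 had an adjusted p under 0.05 on the higher side against 7 on the lower side. Over all tested genes the higher share at that threshold was 31.5%. Cox7b, a small subunit of cytochrome c oxidase, had 67.1, 75.1 and 64.3 CPM in input and 153, 182 and 192 CPM in polysome (log2 1.35 ± 0.10, SE; edgeR adjusted p = 5.00e-08), and Cox6c (1.29) and Cox7a2 (1.19) of the same complex followed. Ndufa5 of complex I had 27.3, 26.2 and 26.4 CPM in input and 53.9, 62.6 and 67.0 CPM in polysome (1.2 ± 0.10, 1.19e-07). By complex the median was 0.80 over 11 subunits of cytochrome c oxidase, 0.76 over 9 of complex III, 0.62 over 37 of complex I, 0.39 over 15 of ATP synthase and −0.02 over 4 of complex II. The median coding length was 411 bases over the list, against 1317 over all tested genes. Without polysome replicate 3 the 12 called genes became 7.

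Mitochondrial ribosomal proteins, which are also made on cytosolic ribosomes, had a median of 0.36, with 4 of 78 called higher (8 without input replicate 2) and none lower, where 6.64% of all tested genes were called higher. At any fold 47 had an adjusted p under 0.05 on the higher side and 5 on the lower side. The 4 called were Mrps18c (1.26), Mrpl18 (1.11), Mrps33 (1.07) and Mrpl50 (1.05), and Mrps18c had 23.8, 22.8 and 20.1 CPM in input and 47.5, 55.2 and 57.4 CPM in polysome. The median coding length of the list was 549 bases, and the 1552 protein-coding genes of 301 to 600 coding bases also had a median of 0.36. With the GC curve taken out 4 were called higher, with a median of 0.41. With coding length taken out as well none was called, with a median of 0.14.

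The 13 mRNAs encoded by the mitochondrial genome are translated inside the organelle and not by cytosolic ribosomes. Of these, 6 were called lower and none higher, with a median of −0.83, and 12 of 13 values were below 0. mt-Nd1 had 1530, 1400 and 1280 CPM in input and 410, 357 and 511 CPM in polysome (log2 −1.72 ± 0.12, SE; edgeR adjusted p = 3.63e-08). mt-Nd2 (−1.57) and mt-Co2 (−1.58) had similar values, and mt-Nd3 had the lowest, −2.44 ± 0.21, from 124, 86.9 and 61.1 CPM in input to 20.6, 17 and 12.2 CPM in polysome. mt-Co1, the most abundant of them, was close to the average mRNA, with 3340, 3610 and 3400 CPM in input and 2820, 2470 and 3290 CPM in polysome (−0.27 ± 0.11, 0.0355). As a class they took 1.44, 1.36 and 1.27% of input reads and 0.825, 0.757 and 1.05% of polysome reads, which did not overlap (exact permutation p = 0.1, two-sided). Their median GC content was 37.1%, in the range in which nuclear genes were mostly high in polysome, and with the GC curve taken out 12 of the 13 were called lower, with a median of −1.81.

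Adipocyte and PPARγ target genes were spread on both sides of 0. Of 44 tested, 5 were called lower and 2 higher (1 without polysome replicate 3 or input replicate 3), with a median of −0.27. After the GC curve was taken out, 3 were called lower and none higher, with a median of −0.16. Fabp4, the fatty acid carrier of adipocytes (ENSMUSG00000062515, chromosome 3, 10204088 to 10208576), had 437, 433 and 419 CPM in input and 1030, 1110 and 1330 CPM in polysome, with no overlap (log2 1.43 ± 0.10, SE; edgeR adjusted p = 3.45e-08), and rose from rank 185 to rank 39 by TPM. Elovl6, a fatty acid elongase, was called higher at 1.03, and the related carrier Fabp5 (0.77), the fatty acid translocase Cd36 (0.65), lipoprotein lipase Lpl (0.62) and Arxes2 (0.58) passed the test within 2-fold. Fasn, the multienzyme of fatty acid synthesis, had 153, 121 and 133 CPM in input and 41.5, 43.4 and 33.0 CPM in polysome (−1.78 ± 0.11, 2.87e-08). Its partners in the pathway, Acaca (−0.99) and Acly (−0.97), were also lower by the test, just within 2-fold. Slc36a2, an amino acid transporter, was called lower at −1.41 and Hadha, of mitochondrial fatty acid oxidation, at −1.07.

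Plin1, which coats lipid droplets, had 53.6, 37.2 and 43.9 CPM in input and 23.2, 20.1 and 20.8 CPM in polysome (log2 −1.07 ± 0.12, SE; edgeR adjusted p = 2.62e-06) and was at −0.93 without input replicate 1. Hormone-sensitive lipase Lipe was at −1.03, and at −0.89 without input replicate 1 and −0.98 without polysome replicate 2. In the fit with the GC offset Plin1 (−0.61) and Lipe (−0.55) were no longer past 2-fold. Plin2 was at −0.86 (6.12e-07), while Cidec, which enlarges droplets, had 170, 131 and 146 CPM in input and 139, 106 and 124 CPM in polysome, which overlapped (−0.28, 0.0408), and was at 0.16 with the GC curve taken out. Pnpla2, the triglyceride lipase, was at −0.30 (0.0172), and at 0.18 with the GC curve taken out. Pparg itself had 14.3, 14.8 and 18.2 CPM in input and 12.5, 15.7 and 15.7 CPM in polysome, which overlapped (log2 −0.11 ± 0.13, SE; adjusted p = 0.473). Adipoq, the hormone adiponectin, had 36.7, 29.8 and 32.0 CPM in input and 37.3, 34.9 and 38.9 CPM in polysome (0.17 ± 0.10, 0.144), which overlapped, and was at −0.02 with the GC curve taken out. Arxes1 was at 0.28 (0.136), and at −0.14 with the GC curve taken out, and the glycerol channel Aqp7, at 2.74, 1.84 and 1.64 CPM in input and 0.816, 1.19 and 1.61 CPM in polysome, was at −0.78 (0.0442), and was called lower without polysome replicate 3 (−1.03).

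Collagens form the fibres and sheets of the extracellular matrix, and most chains were lower in polysome by the test. Of 23 collagen chains, 13 were called lower and none higher, with a median of −1.11. Col4a2, a basement membrane chain, had 1730, 1550 and 1850 CPM in input and 625, 566 and 465 CPM in polysome (log2 −1.63 ± 0.11, SE; edgeR adjusted p = 3.40e-08). Col1a1, the main fibrillar chain, had 4400, 3380 and 4080 CPM in input and 1660, 1510 and 1260 CPM in polysome (−1.42 ± 0.12, 1.41e-07), while its partner Col1a2 was at −1.12 and Col3a1 at −0.59. Col8a1 passed the test on the other side at 0.31. Among 42 other matrix genes 8 were called lower and none higher, with a median of −0.57. With the GC curve taken out 1 of these was called lower (median −0.47), and none with coding length taken out as well (−0.28). They included the laminin Lamb2 (−1.44), fibronectin Fn1 (−1.42), perlecan Hspg2 (−1.19) and Fbln2 (−1.12), and Fn1 had 1450, 1510 and 1700 CPM in input and 706, 610 and 426 CPM in polysome. Some matrix genes were higher by the test within 2-fold, among them Postn (0.83), Mgp (0.67), Dcn (0.54) and the collagen crosslinker Lox (0.46). The median coding length was 5007 bases for the collagens, and their median GC content was 55.7%. After the GC curve was taken out, 4 collagens were called lower, with a median of −0.74, and with coding length taken out as well 1 was, with a median of −0.46.

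Glycolysis enzymes were lower throughout. All 16 tested had an adjusted p under 0.05 on the lower side, against 30.2% of all tested genes, 6 were called lower and none higher, and the median was −0.93. Pkm, the last enzyme of the pathway, had 4440, 3790 and 3690 CPM in input and 1490, 1600 and 1370 CPM in polysome (log2 −1.42 ± 0.10, SE; edgeR adjusted p = 4.10e-08). Hk1, the first, was at −1.51, Gpi1 at −1.22, Eno1 at −1.21 and Aldoa at −1.02. Tpi1 had the lowest value, −1.63, with the largest adjusted p of the list, 0.014. Ldha (−0.40) and Pgam1 (−0.34) were closest to the average. Their median GC content was 54.0%, and with the GC curve taken out 1 was called lower, with a median of −0.61.

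Aminoacyl-tRNA synthetases, which charge tRNAs, had 3 of 20 called lower and none higher, with a median of −0.53 (none called and −0.59 with the GC curve taken out). Aars had 396, 359 and 375 CPM in input and 145, 142 and 135 CPM in polysome (log2 −1.42 ± 0.08, SE; edgeR adjusted p = 1.52e-08), Vars was at −1.32 and Mars at −1.07. Lysosome genes had 5 of 43 called lower (3 without input replicate 1) and none higher, with a median of −0.25 (none called and −0.21 with the GC curve taken out), among them the mannosidase Man2b1 (−1.31) and prosaposin Psap (−1.10, from 4250, 3590 and 3650 CPM in input to 1860, 1770 and 1740 CPM in polysome). ER chaperones had a median of 0.22 (none called and −0.06 with the GC curve taken out), with Ero1l (1.12), which drives disulfide formation, called higher and Hyou1 (−1.28) called lower, of 21. Hspa5, the main chaperone, was at −0.30 and Hsp90b1 at 0.47. Of 34 proteasome subunits 1, Psmc6 (1.08), was called (none with the GC curve taken out), and the median was 0.14.

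Chemokines and cytokines recruit and activate immune cells. Of 24 tested, 4 were called higher and none lower, with a median of 0.24, where 6.64% and 5.15% of all tested genes were called. In the fit with the GC offset none was called and the median was 0.06, with Il6 at 0.28 and Ccl7 at 0.63, and with coding length taken out as well 2 were called lower, with a median of −0.21. Il6 had 10.6, 10.9 and 9.86 CPM in input and 22.9, 27.1 and 26.5 CPM in polysome (log2 1.29 ± 0.11, SE; edgeR adjusted p = 1.33e-07), and the monocyte attractant Ccl7 had 74.9, 102 and 87.4 CPM in input and 202, 222 and 211 CPM in polysome (1.26 ± 0.10, 1.06e-07). Ccl11 was at 1.09, and Ccl6 was called at 1.00 and was within 2-fold without polysome replicate 3 (0.82) or input replicate 3 (0.95). Csf1, the macrophage growth factor, was at −0.69 and Tnf at −0.89, and both passed the test. Interferon-stimulated genes had 2 of 25 called higher, Ifit2 (1.23) among them, and 2 lower, with a median of −0.31. These counts turned on single libraries, with 1 called higher without polysome replicate 1 or input replicate 1, none called lower without polysome replicate 2 or input replicate 3, 1 lower without polysome replicate 3 and 4 lower without input replicate 2. Under the GC offset 1 was called lower and none higher. Immediate early genes had 2 of 30 called lower, near the 5.15% of all tested genes, and none higher, with a median of −0.44. The 2 were Fosb (−1.27) and Jun (−1.01, −0.94 without polysome replicate 3 and within 2-fold without input replicate 3). With the GC curve taken out none was called. Cell cycle genes had 3 of 33 called lower, the helicase subunits Mcm7 (−1.16) and Mcm2 (−1.13) among them, with a median of −0.10 (1 called lower and −0.32 with the GC curve taken out).

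Splicing factors of the SR family had 1 of 12 called, Srsf10 (1.2), and a median of 0.26 (none called and −0.09 with the GC curve taken out). Replication-dependent histones, most of whose mRNAs lack a poly(A) tail and are poorly captured by poly(A) libraries, had 2 of 29 called higher (1 without input replicate 1 or 3) and none lower (1 without input replicate 1), with a median of 0.31. Over all tested genes 6.64% were called higher. In the fit with the GC offset 8 of the histones were called higher, with a median of 0.37. With coding length taken out as well 1 was called higher and 2 lower, with a median of −0.05. The median coding length of the histones was 390 bases.

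**Figure D3:**
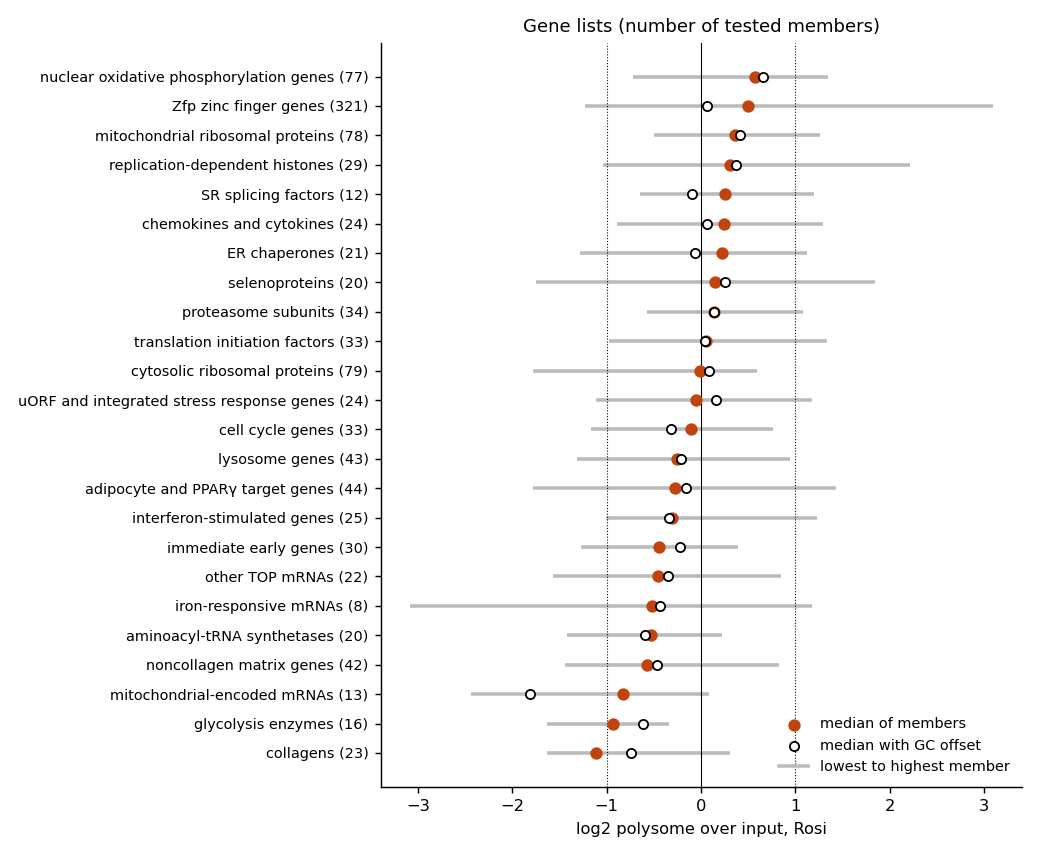
For each gene list of at least 8 tested members (number in parentheses), the orange point is the median log2 polysome over input in Rosi cells, the grey line runs from the lowest to the highest member, and the open point is the median with the GC curve taken out. Of the lists plotted, collagens (−1.11) and glycolysis enzymes (−0.93) had the lowest medians without the GC offset and mitochondrial-encoded mRNAs (−1.81) the lowest with it, nuclear oxidative phosphorylation genes had the highest median both ways (0.57 and 0.66), and the median of the Zfp genes went from 0.50 to 0.06 with the GC curve taken out.

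Single genes of the highest values included many zinc finger genes. Dynlt3, a light chain of the motor dynein, was the abundant exception and had 129, 94.9 and 86.1 CPM in input and 424, 403 and 460 CPM in polysome (log2 2.05 ± 0.13, SE; edgeR adjusted p = 2.01e-08), and moved from rank 2126 to rank 602 by TPM. Ube2v2, a ubiquitin-conjugating variant, had 37.8, 28.3 and 20.9 CPM in input and 93.2, 101 and 107 CPM in polysome (1.79 ± 0.15, 1.43e-07). Among called genes that passed the level and overlap rules for naming, Zfp433 had the highest value, 2.55 ± 0.42, from 1.25, 0.538 and 0.169 CPM in input to 4.55, 3.83 and 2.77 CPM in polysome. Zfp946 (1.96), Zfp182 (1.95), Zfp781 (1.93), Zfp873 (1.90), Zfp37 (1.85) and Zfp976 (1.82) were also among the 12 highest under that rule, which passes over predicted genes without a name, with Dzip3 (1.77) and the brain fatty acid carrier Fabp7 (1.84). Eed, a subunit of the Polycomb complex that methylates histone H3, depended on 1 library. It had 18.5, 1.79 and 2.32 CPM in input and 27.1, 23.3 and 29.1 CPM in polysome, a log2 value of 1.85 ± 0.51 (SE; adjusted p = 0.00558) that was 3.68 without input replicate 1, and DESeq2 did not call it.

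The numbered Zfp genes encode mostly C2H2 zinc finger proteins that bind DNA. Of 321 tested, 75 were called higher and 4 lower, with a median of 0.50, where 6.64% and 5.15% of all tested genes were called. Zfp146 had 21.1, 20.7 and 19.8 CPM in input and 49.4, 54.3 and 53.4 CPM in polysome (log2 1.35 ± 0.09, SE; edgeR adjusted p = 3.45e-08), and Zfp68 (1.39), Zfp260 (1.18) and Zfp655 (1.11) had similarly narrow errors. The 4 called lower were Zfp692 (−1.23), Zfp341 (−1.13), Zfp282 (−1.06) and Zfp865 (−1.05), and 7 were called lower without polysome replicate 1 or without input replicate 2. The median GC content of the list was 45.4%, against 50.4% over all tested genes, and with the GC curve taken out 10 members were called higher and none lower, with a median of 0.06. Zfp146, at 48.8% GC, remained at 1.28 with that curve taken out, while Zfp260, at 40.8%, was at 0.40.

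Among the lowest values outside ferritin and the mitochondria were those of Leng8, Tmem134, Myh14, Helz2 and several gamma protocadherins. Leng8 had 31.3, 25 and 25 CPM in input and 6.79, 6.65 and 6.69 CPM in polysome (log2 −2.01 ± 0.12, SE; edgeR adjusted p = 1.90e-08), with polysome libraries nearly equal. Tmem134, whose gene is annotated as a processed transcript, had 63.8, 55.0 and 50.2 CPM in input and 16.7, 13.6 and 15.6 CPM in polysome (−1.88 ± 0.11, 2.10e-08). Myh14, a nonmuscle myosin heavy chain (−1.92), and Helz2, a nuclear coactivator (−1.86), were low at levels under 10 CPM. The gamma protocadherins, cell adhesion proteins whose genes share their last exons, gave 15 called lower of 21 tested, with a median of −1.49, and Pcdhgb7 (−2.36), Pcdhga5 (−2.08) and Pcdhgc5 (−1.88) were among the 12 lowest under the naming rule. Since their transcripts share exons, their counts are not independent. The pseudogene Pgam1-ps2 (−2.68) can share reads with Pgam1, which was at −0.34.

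Across genes, the value followed the base composition of the mRNA. Over 13094 protein-coding genes, GC content of the main transcript and the log2 value had a Spearman correlation of −0.68, given as a description, since genes share libraries and are not independent. Among 5 groups of about equal size by GC content, the lowest (31.9 to 44.4%) had a median of 0.73 with 666 genes called higher and 12 lower, and the highest (56.2 to 74.7%) had a median of −0.45 with 3 higher and 320 lower. Fabp4 (40.3% GC), Dynlt3 (38.9%), Selenot (39.3%) and Il6 (35.7%) were on the first side, and Ftl1 (58.1%), Pkm (57.7%), Col4a2 (60.6%) and Fasn (58.4%) on the second. By region, the correlation was −0.59 for the coding sequence, −0.59 for the 3′ UTR and −0.11 for the 5′ UTR. The reads themselves shifted, with a mean GC content, weighted by reads over nuclear transcripts, of 49.9 ± 0.21% in polysome and 51.6 ± 0.17% in input (SD, n = 3; exact permutation p = 0.1, two-sided). Whether this arose in the cells or in the making of the libraries was not tested. Under the GC offset, 288 of the 1506 called genes that could be refitted were still called in the same direction, 98 higher and 190 lower, and 1 turned sign.

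Coding length added to this. The Spearman correlation of the value with coding length was −0.33, while coding length and GC content were hardly related to each other (0.02). Genes of over 150 and up to 300 coding bases had a median of 0.62, with 21.6% called higher and 1.44% lower, and genes of over 6000 had a median of −0.50, with 2.51% called higher and 26.2% lower. Genes with few coding bases in the main transcript did not rank low in polysome, although at least 3 ribosomes were required. The 60 genes of at most 150 bases had a median of 0.53. The main transcript, of 210 coding bases for Pnpla2 and 300 for Qars, need not be the longest of its gene. The short groups can therefore hold genes with longer coding sequences. With the longest coding length of each gene the correlation was −0.32. Within the 5 GC groups the correlation with coding length ran from −0.21 in the lowest to −0.60 in the next to highest and −0.58 in the highest. In the highest GC group the median went from 0.04 at over 150 and up to 300 bases to −1.19 over 6000 bases, and in the lowest GC group from 1.03 to 0.54. Neither the level of a gene (correlation 0.00 with mean log2 CPM) nor the length of the 5′ UTR (−0.00) or 3′ UTR (0.09) followed the value to that extent.

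**Figure D4:**
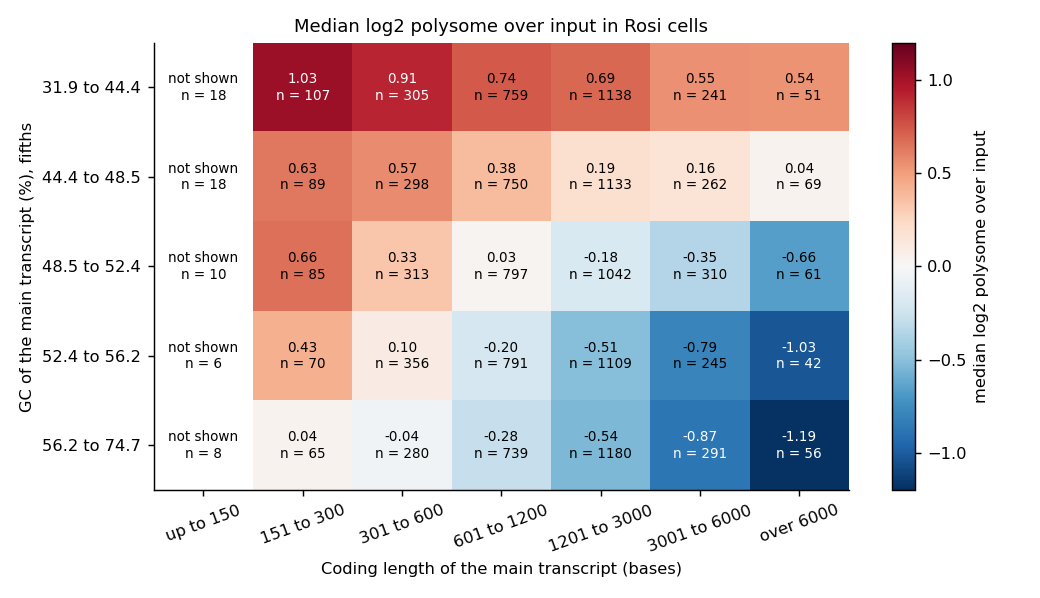
Median log2 polysome over input in Rosi cells for protein-coding genes in 5 groups of GC content (rows) and by coding length (columns), with the number of genes in each cell, and cells of under 20 genes are not shown. The medians run from 1.03 for short genes of low GC content to −1.19 for long genes of high GC content.

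Some genes stood apart from others of like composition. After the GC curve was taken out Ftl1 was at −2.61, Fth1 at −1.58, mt-Nd1 at −2.65, Pabpc1 at −1.73, Rplp0 at −1.5 and Rpsa at −1.66, and all 6 were still called lower. With coding length taken out as well, 94 genes were called higher and 179 lower over all genes. In that fit 167 of the 1506 refitted called genes were still called in the same direction, 65 higher and 102 lower, and 59 turned sign. Nupr1 moved from 1.18 to 1.58 and Cox7a2 from 1.19 to 1.38, while Fabp4 went to 0.62, Eif2s2 to 0.64, Selenot to 0.63 and Pkm to −0.95 in the fit on GC content and were no longer past 2-fold. Of the nuclear oxidative phosphorylation genes 21 were called higher with the GC curve taken out and none with coding length taken out as well, when their median was 0.35.

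Reads were also counted by the class of the transcript. Transcripts annotated as targets of nonsense-mediated decay, in which an early stop codon leads to degradation during translation, took 1.47, 1.47 and 1.51% of polysome reads and 1.29, 1.29 and 1.28% of input reads, a ratio of 1.15 without overlap (exact permutation p = 0.1, two-sided, the smallest possible). Transcripts with retained introns, many of which stay in the nucleus, took 1.46, 1.43 and 1.51% of polysome and 1.51, 1.48 and 1.46% of input reads, which overlapped (exact permutation p = 0.4). Processed transcripts without a coding frame took 1.32 ± 0.0561% of polysome and 1.24 ± 0.0346% of input reads (SD, n = 3; exact permutation p = 0.1), a direction that turned when TPM was used. Pseudogenes took 0.745 ± 0.0187% and 0.891 ± 0.0689% (SD, n = 3; exact permutation p = 0.1). The deposited transcripts held few long noncoding RNAs, and Malat1, Neat1 and Gas5 were not analysed here. Of the nuclear noncoding RNAs listed, Tug1 was tested and was called higher (55.7, 52.3 and 45.3 CPM in input and 115, 112 and 133 CPM in polysome, log2 1.23 ± 0.10, SE; edgeR adjusted p = 1.03e-07).

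The cultures were not adipocytes alone. Summed TPM of 16 macrophage markers was 17300 to 19700 in input and 21500 to 25400 in polysome, against 1120 to 1170 and 2470 to 2840 for 8 adipocyte markers, of which Fabp4 alone had 903 TPM in input and 2400 TPM in polysome on average. Smooth muscle and pericyte markers summed to 9000 to 9630 in input and 6440 to 8040 in polysome, adipose progenitor markers to 1230 to 1500 and 1030 to 1160, and mesothelial markers to 202 to 212 and 85.2 to 105. Endothelial markers were under 11 TPM in all libraries, and lymphocyte markers were near 0, with Cd3e, Cd3d, Cd79a and Cd79b at 0. Within a type the markers did not move as 1. Of the macrophage markers Csf1r was called lower (−1.11), 5 passed the test on the higher side, Msr1 (0.93) among them, and 6 on the lower side. Of the progenitor markers 3 of 9 tested were called lower, Col1a1 and Icam1 (−1.02, and −0.93 without input replicate 1 and −0.99 without polysome replicate 1) among them, and Ly6a was at 0.84. Of 8 mesothelial markers 4 were called lower, such as Krt18 (−1.54). Crisp1, a protein of the epididymis, was at 72.9, 93.3 and 77.5 CPM in input and 133, 162 and 144 CPM in polysome (log2 0.85, and −0.13 with the GC curve taken out), and the other epididymis markers were at 0. The part of cell composition in the values above was not tested.

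The same contrast in vehicle (Veh) cells, which differed from Rosi cells in receiving DMSO, was used for comparison in a fit of all 4 groups, in which identical input Veh libraries were counted once (11 libraries). In that fit 1358 of 14042 genes (9.67%) were called in Veh, 2.99% higher and 6.68% lower, and 1593 (11.3%) in Rosi. Ftl1 was at −3.08 in Rosi and −2.71 in Veh, Fth1 at −1.89 and −1.67, Fabp4 at 1.44 and 0.98, and Pkm at −1.41 and −1.71. The median of the collagens was −1.18 in Veh, that of glycolysis enzymes −1.11 and that of nuclear oxidative phosphorylation genes 0.24. No gene was called for a difference between Rosi and Veh by edgeR (0.0%), although 961 (6.84%) had an unadjusted p under 0.05, and DESeq2 called 1. The smallest values belonged to Pabpc1, at −1.56 in Rosi and −0.73 in Veh (difference −0.83 ± 0.13, SE; edgeR adjusted p = 0.163), and to Spop, a ubiquitin ligase adaptor, at −0.38 and 0.36 (adjusted p = 0.221).

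All 13 mitochondrial-encoded mRNAs had a lower value in Rosi than in Veh, by 0.46 to 0.99 on the log2 scale, and 11 had an unadjusted p under 0.05, with adjusted p of at least 0.57, so that none passed. mt-Nd1 differed by −0.98 ± 0.20 (SE) and mt-Co1 by −0.73 ± 0.15 (SE), from 0.47 in Veh to −0.27 in Rosi. In that fit the libraries of mt-Nd1 stood at 821, 666 and 646 CPM in polysome Veh against 409, 351 and 503 CPM in polysome Rosi, and at 1100 and 1270 CPM in input Veh against 1510, 1370 and 1260 CPM in input Rosi. For this gene the groups did not overlap in polysome and overlapped in input. Over the 13 genes all Rosi polysome libraries lay below all Veh polysome libraries in 5, and the groups overlapped in the other 8, mt-Nd3, mt-Co2 and mt-Cytb among them. In input all Rosi libraries lay above all Veh libraries in 5, and the groups overlapped in 8. These mRNAs come from 1 genome and share transcripts before processing, so their values are not independent.

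**Figure D5:**
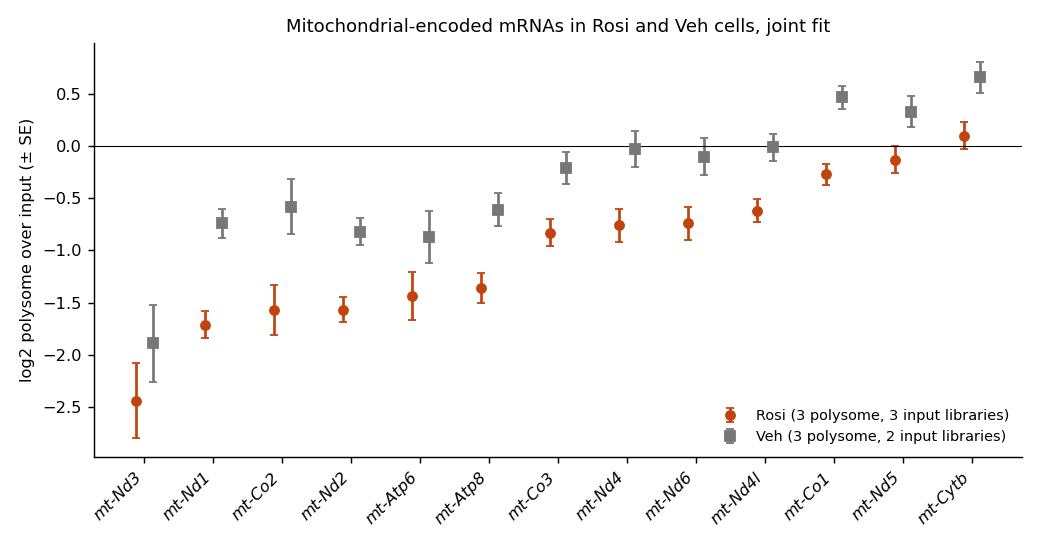
Log2 polysome over input (± SE) of the 13 mitochondrial-encoded mRNAs in Rosi (orange circles) and Veh (grey squares), from the joint fit of 11 libraries. Every Rosi value lies below its Veh value, from mt-Nd3 (−2.44 against −1.89) to mt-Cytb (0.10 against 0.66), and no single difference passed the adjusted test.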

How the data were processed

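Total RNA and pooled polysome RNA of cultured SVF cells were sequenced as poly(A) paired-end libraries. Per the labels and the article, the authors used bcl2fastq 2.17, FastQC, Salmon against mm10 and DESeq2, with versions of the last 3 not given in the sources used here. The authors deposited for each library an estimated count and a TPM per transcript, with transcript and effective lengths. The strandedness of the kit was not given in the sources used here.

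By Ensembl ID, 115973 of the 117135 transcripts per library were assigned to 35523 genes of GENCODE M21 (GRCm38), and 1162, holding 0.381 to 0.464% of reads, stayed out. Gene totals of the estimated counts were rounded to whole numbers. Input Veh replicates 2 and 3 held equal values and were counted once. The 6 Rosi libraries (19.8 to 24 M estimated reads) were fitted alone with edgeR 4.0.16 (R 4.3.3) after filterByExpr, with TMM factors and a quasi-likelihood F test, two-sided, with Benjamini-Hochberg adjustment over all tested genes. Calls needed an adjusted p below 0.05 together with more than 2-fold in either direction. Each SE was obtained by dividing the size of the log2 value by the root of its F statistic. The labels call the libraries biological replicates, and the test sets the difference between fractions against the spread between libraries of the same fraction. The difference between Rosi and Veh was the interaction in a fit of 4 groups. Shares of reads were compared by exact permutation over samples.

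The main transcript of a gene was the one with the highest mean TPM, and GC content, coding length and 5′ UTR elements were read from it. For the GC curve, the mean log2 CPM (prior count 2) of each gene over the 6 libraries was first subtracted. What remained in each library was smoothed on GC content (lowess, span 0.3) in 2 passes. The curve was entered as an offset, which takes out any difference that follows GC content, whatever its origin.

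Named genes were the 12 highest and 12 lowest of the called genes whose libraries did not overlap and whose mean log2 CPM reached 1 (Gm, Rik and accession names passed over), the 4 or fewer members with the smallest p in a list, 18 genes of interest (Pparg, Adipoq, Fabp4, Plin1, Cidec, Pnpla2, Arxes1, Aqp7, Ftl1, Fth1, Rpl41, Atf4, Pabpc1, Eef2, Malat1, Neat1, Gas5, mt-Co1), and up to 3 on each side of the interaction. Some genes that the rule selects go undescribed, and further list members were named after their values were seen. The comparison, members, lists and tests were chosen with earlier results of these data known. Alternatives were DESeq2 1.42.0, RLE and upper quartile factors, factors from nuclear protein-coding genes, 2 count filters, each library left out, the replicate number as a block, the joint fit, limma 3.58.1 on log2(TPM + 1), no fold threshold, and offsets for GC content and coding length, added after seeing the data. The lists of lymphocyte and erythroid markers and of snoRNA hosts had no tested member, and neutrophil and mast cell markers had 2, of which none was called. Some list members, counted in the lists, are not reported here by name.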

Additional observations from a re-analysis of the deposited data

Results flagged for a closer look

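Opposite orders of the fractions in Rosi and Veh were looked for among the named genes. For mt-Co1 all polysome libraries lay below all input libraries in Rosi (log2 −0.27) and above them in Veh (0.47). For Spop the same held (−0.39 in the fit of Rosi alone and 0.36 in Veh, with 2 separate input Veh libraries). The test of the difference itself gave an edgeR adjusted p of 0.57 for mt-Co1 and 0.221 for Spop, so neither passed.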

How the results depend on the processing

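The main counts of 901 genes called higher and 699 lower were 783 to 1075 and 604 to 786 with each library left out in turn. They were 515 and 356 with limma on log2(TPM + 1), 207 and 269 with the GC offset, 94 and 179 with GC content and coding length as offsets, and 4272 and 4099 at any fold. DESeq2, RLE, upper quartile and nuclear-gene factors, both count filters and the joint fit kept these counts within 1.5 times. The replicate number as a block gave 891 and 702. The deviations of same-numbered libraries from their fraction means had correlations of −0.08, −0.03 and −0.09. With means of 3 libraries, these values cannot show whether same-numbered libraries came from the same culture. Of 157 named genes the block changed the call of Ccl6. The count of genes differing between Rosi and Veh, 0 in either direction, was 31 higher and 26 lower without a count filter, 0 and 1 with DESeq2, and 0 to 6 and 0 to 3 with a library left out, the upper ends without polysome Veh replicate 1.

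With TPM in place of counts, the share in polysome minus input, in percentage points, was −1.57 for mitochondrial-encoded genes (−0.48 with counts), −1.88 for ribosomal proteins (−0.589), −1.91 for ferritin (−0.94), −0.494 for pseudogenes (−0.147), −0.0866 for retained introns (−0.0172), 0.0746 for nonsense-mediated decay (0.195) and −0.113 for processed transcripts, which reversed (0.0833). The Spearman correlation with coding length was −0.40 over genes at a mean log2 CPM of 5 or more (−0.33 over all), and that with GC content ran from −0.69 to −0.65 with a library left out. Signs turned with the GC offset for Srsf3 (−0.16), Crisp1 (−0.13), Adipoq (−0.02), Cidec (0.16), Pnpla2 (0.18), Arxes1 (−0.14), Rpl41 (0.39) and Samd9l (−0.23). With coding length added they turned for Eif1ax (−0.21), Psma3 (−0.11), Ccl11 (−0.04), Srsf1 (−0.12), Tra2b (−0.05), Srsf3 (−0.49), Hist1h2bc (−0.22), Hist3h2a (−0.36), Vwf (0.32), Emcn (−0.04), S100a8 (−0.15), Crisp1 (−0.26), Pparg (0.00), Adipoq (−0.19) and Arxes1 (−0.45). With a library left out Pparg ran from −0.17 to 0.01 and Rpl41 from −0.19 to 0.11. The cause of these changes was not tested, and the offsets by construction remove any change that follows GC content or coding length. With 3 libraries a fraction, an exact permutation test cannot go below 0.1, and polysome fractions lighter than the pool were not analysed here.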
